A study of Homo sapiens with 6 samples.

Results

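Of the 1630 genes in the deposited table, 54 sat close to zero in U87MG cells treated with a short hairpin RNA against CREPT while they were measurable in the control cells. They were chosen by their values: a mean below 0.5 normalized units over the 3 knockdown libraries, a mean of at least 1 over the 3 control libraries, and a control mean at least 4 times the knockdown mean. Genes without a symbol, with a hyphen in the symbol, or with a symbol starting with LINC, LOC, ZNF, SLC, ABC, PCDH or COL were left out beforehand. Without the name rule 78 genes met the same limits, and the 24 left out were 15 with no symbol, 4 with a LINC symbol and 5 with a hyphen. When each was given a role by hand from general knowledge, 18 of the 54 were secreted or matrix proteins, among them SCUBE3, LTF, PI15 and SCRG1. The share of such roles among all listed genes was not counted. Lists built from symbols alone hold fewer members, 4 among 43 matrix genes and 4 among 61 secreted factors. The latter 4 include SEMA6D and SLITRK6, which are in that list by their symbols and are counted by role as adhesion proteins and receptors.

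The cells are U87MG, an established human glioblastoma line, in 2 groups. The 3 shControl libraries carried a control hairpin (genotype NC in the labels) and the 3 shCREPT libraries carried the hairpin against CREPT (genotype CREPT Knockdown). The labels do not give the hairpin sequences, whether a single clone or a mixed population was grown, or whether the 3 libraries of a group are separate cultures, so the spread given here may be technical. The question set by the design is which transcripts differ when CREPT is targeted, and the knockdown itself was not checked. RPRD1B, the gene of CREPT, has no row in this table of genes called changed and was not analysed here.

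CREPT binds the C-terminal domain of the largest subunit of RNA polymerase II, the tail whose phosphorylation is changed as a polymerase moves from the promoter into the gene body. It has been described as an activator of cyclin D1 transcription and has been found at raised levels in many tumours. Glioblastoma cells make many secreted and surface proteins of glial, mesenchymal and immune type, which shape the matrix and the cells around a tumour.

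The values are normalized expression levels of a kind that no source used here names (TPM or FPKM, for example), and the depth behind them is unknown. Whether they are scaled by gene length is not stated either, so levels are set side by side between libraries and not ranked as amounts of RNA between genes. A fold below is the ratio of the 2 group means. Because the members were chosen on this same contrast, their differences are descriptions and carry no test. The table itself holds only genes that the authors called changed. All 54 members were marked down in shCREPT in the authors' deposited table, as were 973 genes of the table (59.7%), and 694 of the 1171 genes that pass the name rule. The members are 7.78% of those 694.

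The words "switched off" hold for few of them. CSAG4 was listed at 0 in all 3 shCREPT libraries, 3 members (APOC3, TACR1 and C5orf46) were at 0 in 2 of them, and 8 were at 0 in 1. The other 42 had a value above 0 in each shCREPT library, so the genes are called near-off here. Every shCREPT library was below 0.5 in 41 members, every shControl library was at least 1 in 42, and both held in 29. No member was at 0 in any shControl library.

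The median over the 54 members was 1.71 in shControl (group means of 1 to 10.8) and 0.243 in shCREPT (0 to 0.493). The median fold was 6.94, from 4.12 in SULT1A1 to 82.3 in TACR1 (53 members, since CSAG4 has no fold). The fold was at least 10 in 19 members, of which 11 were at or over 20, and it was under 5 in 6. In the units of the table, 33 members had a shControl mean under 2, 9 reached 3, and SCUBE3 and LTF alone passed 5. Among all 1630 listed genes, 309 (19%) were lower by at least 4 times, and 4.79% met the value limits of the rule under any name.

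**Figure D1:**
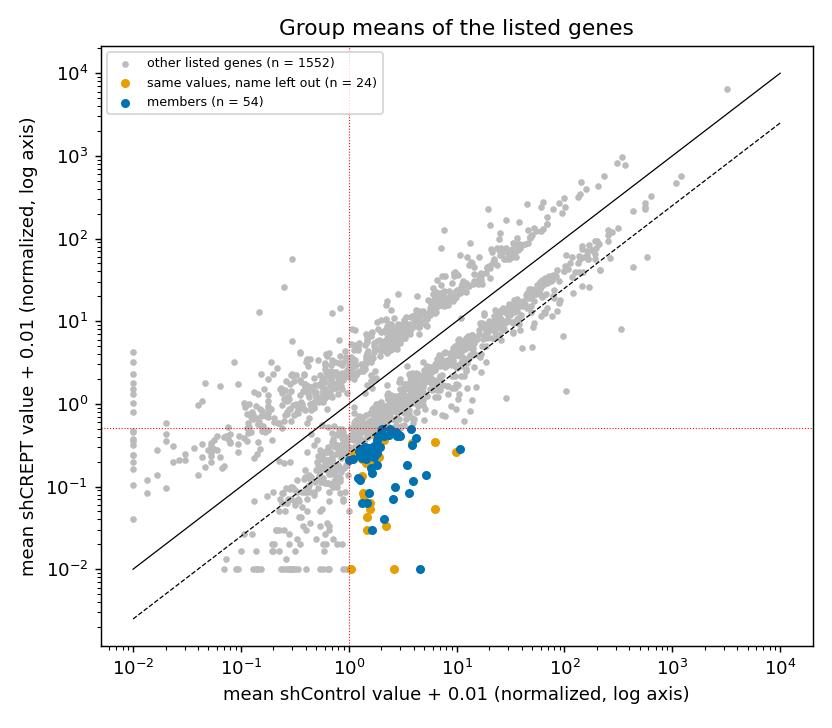
Mean normalized value in shCREPT (vertical, 3 libraries) against shControl (horizontal, 3 libraries) for the 1630 listed genes, both on log axes with 0.01 added. Dotted lines mark the limits of 0.5 and 1, the dashed line a 4-fold lower mean and the solid line equality. The 54 members (blue) and the 24 genes left out by name (orange) fill the lower corner that the rule cuts out, and the highest shControl mean of a member is 10.8.

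In all 54 members the highest shCREPT library was below the lowest shControl library. The rule nearly fixes this: the groups also did not overlap, with shCREPT lower, in 904 of the 1630 listed genes (55.5%) and in 92.9% of the genes marked down. The gap is the more informative value. The lowest shControl library was a median of 3.83 times the highest shCREPT library, from 1.61 in CD74 to 42.6 in SCRG1 (53 members, since CSAG4 has no value above 0 in shCREPT).

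**Figure D2:**
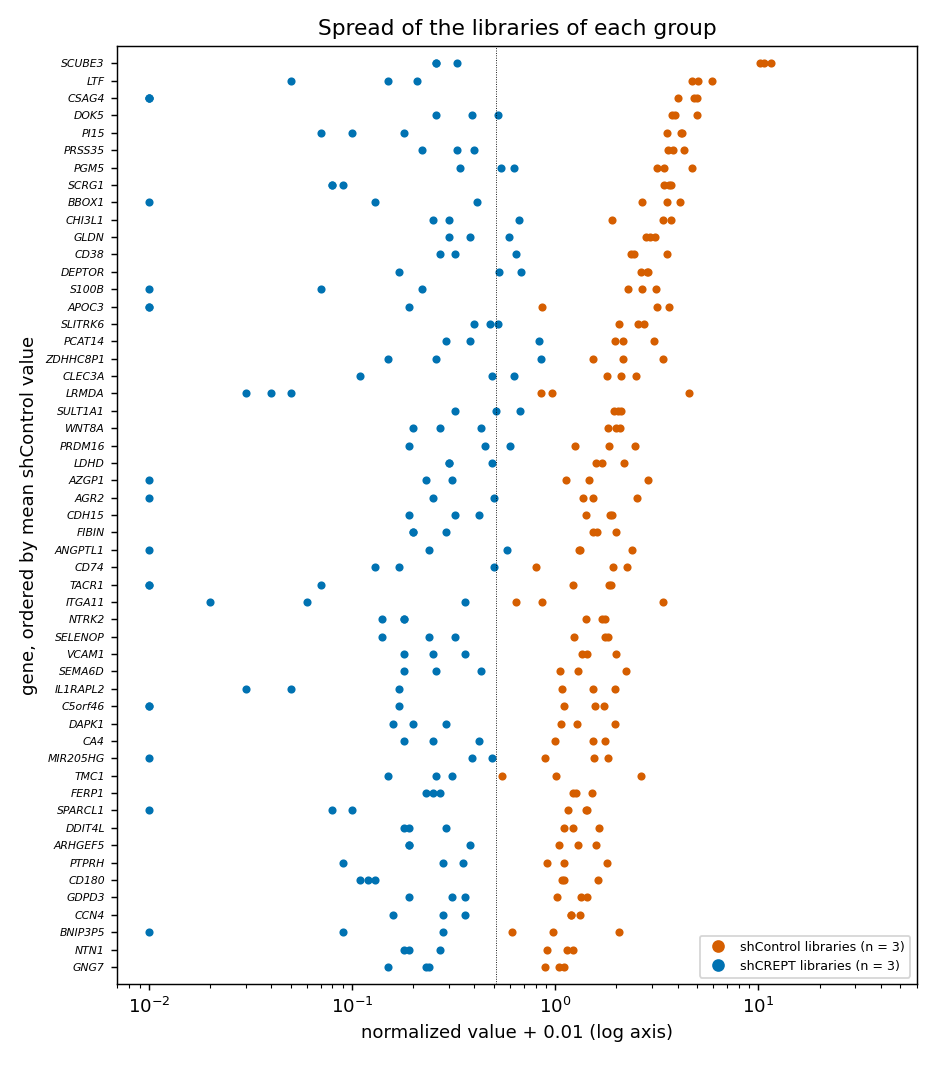
Normalized value of 53 of the 54 members in each library, on a log axis with 0.01 added, with genes ordered by the mean of the 3 shControl libraries (orange) and the 3 shCREPT libraries in blue; the dotted line marks the limit of 0.5. Above 0, the groups are widest apart in SCRG1 (lowest shControl 42.6 times the highest shCREPT library) and closest in CD74 (1.61 times).

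The members took 0.355 to 0.390% of the summed listed values in shControl and 0.0374 to 0.0417% in shCREPT. The sum over members was 126.7, 122.75 and 118.25 in the 3 shControl libraries and 12.35, 13.64 and 13.3 in the 3 shCREPT libraries. No single library carried the pattern in the sum. In these bulk samples, fewer cells that express a gene and less RNA per cell cannot be told apart.

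The set of RefSeq promoters used here (GRCh38.p14) holds 30 of the 54 members. The other 24, SCUBE3 and S100B among them, are missing from that set, which does not mean that RefSeq lacks them. A promoter was taken as 250 bases before to 50 after the most upstream start of the gene. The start used in U87MG cells is not known from these data. The promoters of 6 members are shown because the members differ in CpG content and TATA boxes from the other listed genes. CHI3L1, TACR1, SELENOP and VCAM1 were chosen for a TATA box 40 to 20 bases before the start. C5orf46 and DDIT4L have one there too and are not shown. BBOX1 and GNG7 were chosen as the lowest and highest in CpG content. The 6 are therefore richer in such TATA boxes than the member promoters, where 6 of 30 have one. The 250 bases before the start are printed 5′ to 3′ on the strand of the gene. Capitals mark the letters searched: the TATA box TATAAA, the CCAAT box CCAAT, the GC box GGGCGG, the AP-1 element TGANTCA, the CRE core TGACG, the E-box CACGTG, the hypoxia core ACGTG and the TEAD element GGAATG, on either strand. CACGTG contains ACGTG, and neighbouring matches can overlap, so that a run of capitals may hold more than 1 match.

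VCAM1 lies at chr1:100719492-100719741 (plus strand), CHI3L1 at chr1:203186705-203186954 (minus), TACR1 at chr2:75199521-75199770 (minus), SELENOP at chr5:42811893-42812142 (minus), BBOX1 at chr11:27040565-27040814 (plus) and GNG7 at chr19:2702695-2702944 (minus).
VCAM1: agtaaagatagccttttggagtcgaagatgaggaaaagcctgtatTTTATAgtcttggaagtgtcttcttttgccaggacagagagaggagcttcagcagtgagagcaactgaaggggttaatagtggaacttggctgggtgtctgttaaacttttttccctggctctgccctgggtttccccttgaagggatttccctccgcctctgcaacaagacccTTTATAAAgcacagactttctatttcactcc
CHI3L1: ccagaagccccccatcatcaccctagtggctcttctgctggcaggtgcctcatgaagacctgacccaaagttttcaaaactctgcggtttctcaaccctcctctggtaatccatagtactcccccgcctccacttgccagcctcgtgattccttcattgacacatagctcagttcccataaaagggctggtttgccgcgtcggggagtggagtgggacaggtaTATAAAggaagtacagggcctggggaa
TACR1: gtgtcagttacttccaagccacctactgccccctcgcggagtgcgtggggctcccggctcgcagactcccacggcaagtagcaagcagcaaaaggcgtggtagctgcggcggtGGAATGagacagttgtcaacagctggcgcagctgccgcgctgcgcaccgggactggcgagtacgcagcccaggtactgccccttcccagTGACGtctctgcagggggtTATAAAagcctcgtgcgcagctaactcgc
SELENOP: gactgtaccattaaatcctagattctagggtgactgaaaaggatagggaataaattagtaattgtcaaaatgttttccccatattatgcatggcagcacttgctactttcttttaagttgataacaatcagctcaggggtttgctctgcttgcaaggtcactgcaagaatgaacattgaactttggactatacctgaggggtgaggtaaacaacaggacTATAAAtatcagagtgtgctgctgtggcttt
BBOX1: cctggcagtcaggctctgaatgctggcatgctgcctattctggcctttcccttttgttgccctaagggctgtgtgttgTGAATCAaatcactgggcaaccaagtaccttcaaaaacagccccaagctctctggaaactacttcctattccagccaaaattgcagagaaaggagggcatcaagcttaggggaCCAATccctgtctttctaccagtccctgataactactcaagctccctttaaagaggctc
GNG7: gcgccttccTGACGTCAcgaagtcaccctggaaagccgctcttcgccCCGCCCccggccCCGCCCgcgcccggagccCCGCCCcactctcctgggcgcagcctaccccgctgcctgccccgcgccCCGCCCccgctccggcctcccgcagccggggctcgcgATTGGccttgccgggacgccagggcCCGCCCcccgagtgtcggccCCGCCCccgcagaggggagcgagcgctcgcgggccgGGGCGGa

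CHI3L1, TACR1, SELENOP and VCAM1 each have a TATA box on the sense strand that starts 27, 29, 31 and 29 bases before the RefSeq start, the window where the TATA-binding protein usually sits. BBOX1 has none, has no CpG in the 300 bases, and has an AP-1 match 172 bases and a CCAAT box 59 bases before the start. GNG7 is at the other end, with 45 CpG pairs, 7 GC boxes before the start and no TATA box.

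A TATA box in the 40 to 20 bases before the start was found in 6 of the 30 member promoters (20%), in CHI3L1, TACR1, SELENOP, VCAM1, C5orf46 and DDIT4L. Among genes with a RefSeq promoter, it was found in 3.80% of 553 others marked down, 3.62% of 387 genes marked up and 2.56% of all 27305 RefSeq gene promoters. Anywhere in the 300 bases and on either strand, TATAAA was in 8 member promoters (26.7%), against 10.8%, 9.04% and 12% in those sets.

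CpG content, the observed number of CG pairs over that expected from the base composition, had a median of 0.288 over the 30 member promoters. The median was 0.664 in the other genes marked down, 0.757 in the genes marked up and 0.577 in all promoters. A value of at least 0.6, usual for a CpG island promoter, was reached by 8 of 30 (26.7%), namely PRSS35, TACR1, ITGA11, SEMA6D, IL1RAPL2, DAPK1, ARHGEF5 and GNG7. It was reached by 55.9% of the other genes marked down and 66.4% of those marked up. Set beside 231 other genes marked down whose shControl mean lay in the same range, the members again had the lower CpG content: those genes had a median of 0.674, and 4.76% of them had a TATA box in the window. The name rule was not applied to any of the comparison sets of promoters, and levels within the range were not matched. The part of either in these differences was not tested. The GC box GGGCGG was in 12 of 30 (40%), below the 54.6% of the other genes marked down and near the 44.5% of all promoters.

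The remaining motifs were at shares near those of all promoters. CCAAT was in 40% of the member promoters and 35.7% of all, TGANTCA in 10% and 7.72%, TGACG in 26.7% and 25%, CANNTG in 70% and 69%, ACGTG in 20% and 21.6%, and GGAATG in 10% and 14.1%. CACGTG was in 1 of 30 (3.33%), that of SEMA6D, and in 7.41% of all. These are shares of letters in a window; they are not sites shown to be bound, and 24 members have no promoter in the table. With every RefSeq start counted in place of the most upstream, an alternative chosen after seeing the data, 40 member starts had a median CpG ratio of 0.328 against 0.579 over 35116 starts, and TATAAA was in 27.5% against 11.5%.

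**Figure D3:**
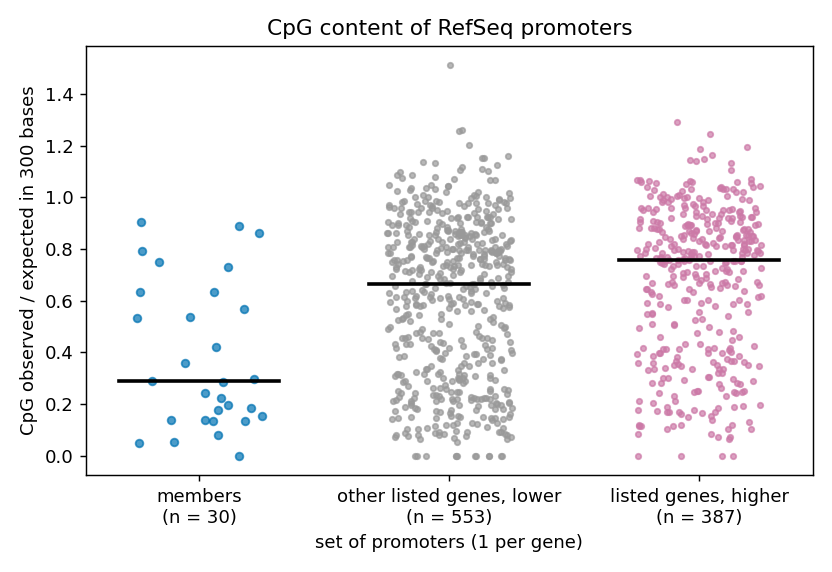
CpG observed over expected in the 300 bases around the RefSeq start, 1 point for each gene, for the 30 members with a promoter, 553 other genes marked down and 387 genes marked up; black bars are medians and the horizontal scatter within a set is for display only. Most member points lie below 0.6, and the medians are 0.288, 0.664 and 0.757.

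Among the secreted and matrix proteins, SCUBE3 had the highest value in the units of the table, which need not be the most RNA. SCUBE3, a secreted EGF-domain glycoprotein that can act as a ligand at TGF-beta receptors, lies on chromosome 6 at 35214419 to 35253079 (GRCh38). Its values were 10.21, 11.55 and 10.63 in shControl and 0.25, 0.25 and 0.32 in shCREPT, means of 10.8 ± 0.685 and 0.273 ± 0.0404 (SD, n = 3). It was 39.5-fold lower, and the 2 sets of libraries were each tight.

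LTF encodes lactoferrin, an iron-binding protein of milk and neutrophil granules (chromosome 3, 46435645 to 46485234). It was at 5.06, 5.88 and 4.72 in shControl and at 0.04, 0.2 and 0.14 in shCREPT, a fold of 41.2. SCRG1, a small secreted protein named for its response in scrapie-infected brain (chromosome 4, 173384701 to 173406380), was at 3.61, 3.72 and 3.41 against 0.07, 0.07 and 0.08. Its fold of 48.8 came with the widest gap of the 53 members that have a value above 0 in shCREPT. Its shControl libraries varied by only 4.39% (coefficient of variation).

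PI15, a secreted protein of the CAP family (chromosome 8, 74824534 to 74855029), was at 3.54, 4.15 and 4.19 in shControl and 0.06, 0.17 and 0.09 in shCREPT, 37.1-fold lower. PRSS35, a secreted serine protease homologue (chromosome 6, 83512538 to 83525704), was at 3.79, 4.27 and 3.58 against 0.21, 0.32 and 0.39, 12.7-fold lower. Both kept all their shControl libraries above 3 and all their shCREPT libraries under 0.5.

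CHI3L1 encodes the chitinase-like glycoprotein YKL-40, a widely used marker of mesenchymal glioblastoma (chromosome 1, 203178931 to 203186749). Its shControl values were 3.38, 1.9 and 3.69 and its shCREPT values 0.65, 0.29 and 0.24, a fold of 7.60. It was less even than the genes above, with shControl replicate 2 well below the other control libraries and shCREPT replicate 1 above the limit of 0.5.

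APOC3, an apolipoprotein that inhibits lipoprotein lipase (chromosome 11, 116829706 to 116833072), was at 3.63, 0.85 and 3.16 against 0, 0.18 and 0. Its fold of 42.4 rests on a single value above 0 in shCREPT. CLEC3A, a C-type lectin of cartilage (chromosome 16, 78022515 to 78066761), was at 2.5, 2.1 and 1.78 against 0.48, 0.62 and 0.1, 5.32-fold lower. WNT8A, a Wnt ligand of the early embryo (chromosome 5, 138083892 to 138092365), was at 1.99, 1.8 and 2.08 against 0.42, 0.26 and 0.19. It was 6.75-fold lower and even within both groups.

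The other 9 members of this group had shControl means of 1.08 to 1.81. SPARCL1, a matricellular relative of SPARC that astrocytes secrete, and C5orf46, a small secreted peptide, were the lowest in shCREPT, with means of 0.0533 in both and folds of 24.8 and 27.4. AZGP1, a zinc-binding plasma glycoprotein, was 10.4-fold lower, FIBIN, a secreted protein named for fin bud initiation, 7.76-fold, and AGR2, a disulfide isomerase of secretory cells, 7.41-fold. SELENOP, the selenium carrier of plasma, was 7.13-fold lower and ANGPTL1, an angiopoietin-like protein, 6.24-fold. NTN1, the axon guidance cue netrin 1, was 5.33-fold lower, and CCN4, a matricellular target of Wnt signalling, 4.77-fold. AZGP1 and ANGPTL1 had a library at 0 in shCREPT, as did AGR2 and SPARCL1.

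Of the 10 adhesion proteins and receptors, TACR1 had the largest fold of the 53 members that have one. TACR1 is the receptor of the neuropeptide substance P (chromosome 2, 75046463 to 75199700). It was at 1.22, 1.84 and 1.88 in shControl and at 0, 0 and 0.06 in shCREPT. The fold of 82.3 depends on that single value above 0, and the spread it allows cannot be given without the depth.

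GLDN, gliomedin, a ligand with which Schwann cells gather sodium channels at nodes of Ranvier (chromosome 15, 51341629 to 51408013), was at 3.1, 2.79 and 2.93 against 0.29, 0.58 and 0.37. It was 7.11-fold lower. SLITRK6, a leucine-rich repeat protein of neurites and the inner ear (chromosome 13, 85792787 to 85806683), was at 2.73, 2.56 and 2.05 against 0.39, 0.47 and 0.51, and its fold of 5.36 was the smallest of the group. In both genes 1 shCREPT library stood above 0.5 and the control libraries stayed above 2.

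The other 7 had shControl means of 1.26 to 1.72. IL1RAPL2, a brain member of the interleukin 1 receptor family, was 20.7-fold lower, ITGA11, the alpha chain of a collagen-binding integrin, 11.9-fold, and NTRK2, the BDNF receptor TrkB, 10.3-fold. ITGA11 was uneven in the control cells, at 0.85, 3.38 and 0.63, and without shControl replicate 2 its fold was 5.41. NTRK2 was even, at 1.74, 1.68 and 1.41 against 0.17, 0.17 and 0.13. VCAM1, the endothelial and glial ligand of an integrin of leukocytes, was 6.26-fold lower, CDH15, the cadherin of muscle cells, 5.73-fold, PTPRH, a receptor tyrosine phosphatase, 5.48-fold, and SEMA6D, a transmembrane semaphorin, 5.44-fold.

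The 3 immune surface proteins were CD38, CD74 and CD180. CD38, an ectoenzyme that consumes NAD (chromosome 4, 15778275 to 15853230), was at 3.54, 2.36 and 2.44 in shControl and 0.26, 0.31 and 0.63 in shCREPT, 6.95-fold lower. CD180, a toll-like receptor homologue of B cells and macrophages, was at 1.1, 1.61 and 1.07 against 0.1, 0.11 and 0.12, 11.5-fold lower. CD74, the invariant chain of MHC class II and a receptor of the cytokine MIF, was at 1.92, 0.79 and 2.25 against 0.12, 0.16 and 0.49. CD74 had the narrowest gap of all members, since its shControl replicate 2 came close to shCREPT replicate 3. None of 10 fixed markers of microglia and macrophages and none of 10 of T cells has a row in this table of changed genes, so their levels were not analysed here and their part in these 3 genes was not tested.

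S100B stood for the glial proteins. It is a calcium-binding protein of astrocytes (chromosome 21, 46598962 to 46605208) and was at 3.12, 2.27 and 2.66 in shControl and at 0.06, 0 and 0.21 in shCREPT, 29.8-fold lower. Of 10 fixed astrocyte and glioma markers, 3 have a row, GFAP, SLC1A3 and S100B. All were marked down, as was 59.7% of the whole table. S100B is a member, so the rule fixed its direction. The summed value of the 3, S100B included, was 498 to 528 in the shControl libraries and 72.5 to 88.9 in the shCREPT libraries. Markers of endothelial cells (2 of 10 listed), fibroblasts and pericytes (3 of 10) and neurons (2 of 10) were also all marked down, with lower sums in every shCREPT library than in any shControl library. Of 10 epithelial markers 3 have a row, 2 marked down and 1 up, and their summed value was higher in shCREPT, 21.7 to 24.4 against 10.5 to 12.1 in shControl. How far these move the members was not tested.

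Signalling, transcription and channel proteins gave 9 members. DOK5, an adaptor protein of receptor tyrosine kinases (chromosome 20, 54475597 to 54651171), was at 3.74, 4.95 and 3.86 in shControl and 0.51, 0.38 and 0.25 in shCREPT, 11.0-fold lower. DEPTOR, an inhibitory subunit of the mTOR complexes (chromosome 8, 119873717 to 120050913), was at 2.62, 2.84 and 2.82 against 0.16, 0.52 and 0.67, 6.13-fold lower. Its control libraries were among the most even of the members, while its shCREPT libraries ranged from 0.16 to 0.67.

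PRDM16, a zinc finger regulator of brown fat and stem cells (chromosome 1, 3069168 to 3438621), was at 1.82, 1.24 and 2.47 against 0.18, 0.44 and 0.59, 4.57-fold lower. LRMDA, a leucine-rich protein of melanocyte differentiation (chromosome 10, 75431453 to 76560167), was at 4.56, 0.84 and 0.95 against 0.02, 0.04 and 0.03. The fold of 70.6 for LRMDA rests on shControl replicate 1: its control libraries had a coefficient of variation of 100%, the largest of any member, and without that library its shControl mean was 0.895 and its fold 29.8.

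Of the other 5, DAPK1, a death-associated kinase, was 6.94-fold lower, DDIT4L, a relative of the mTOR inhibitor REDD1, 6.27-fold, and TMC1, a channel subunit of inner ear hair cells, 6.04-fold. ARHGEF5, a guanine nucleotide exchange factor, was 5.34-fold lower and GNG7, a G protein gamma subunit, 5.08-fold. TMC1 was uneven in shControl, at 0.54, 1.0 and 2.63, and without shControl replicate 3 its fold was 3.35.

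The metabolic enzymes had the smallest median fold of the larger groups, 5.16 over 6 members, against 9.10 over the 18 secreted and matrix proteins, 6.69 over the 10 adhesion proteins and receptors and 6.13 over the 9 signalling proteins. BBOX1, the last enzyme of carnitine synthesis (chromosome 11, 27040725 to 27127809), was at 4.11, 3.54 and 2.67 in shControl and 0.12, 0 and 0.4 in shCREPT, 19.8-fold lower. PGM5, a phosphoglucomutase relative that sits at cell adhesions (chromosome 9, 68328308 to 68531061), was at 4.72, 3.44 and 3.15 against 0.33, 0.62 and 0.53, 7.64-fold lower. BBOX1 was the only enzyme here with a fold over 10.

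SULT1A1, a phenol sulfotransferase (chromosome 16, 28605196 to 28623625), was at 2.02, 1.94 and 2.1 against 0.66, 0.5 and 0.31, and LDHD, a mitochondrial D-lactate dehydrogenase (chromosome 16, 75111860 to 75116771), at 1.57, 2.18 and 1.69 against 0.29, 0.29 and 0.48. SULT1A1 had the most even control libraries of all members (coefficient of variation 3.96%) and the smallest fold, 4.12. LDHD was 5.13-fold lower. CA4, a membrane carbonic anhydrase, and GDPD3, a lysophospholipase D, were 5.18-fold and 4.54-fold lower, with shControl means of 1.42 and 1.26.

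Pseudogenes and noncoding transcripts made up 6 members. CSAG4, a copy of the cancer-testis CSAG family that has no entry in GENCODE v29, was at 4.97, 4 and 4.81 in shControl and listed at 0 in all 3 shCREPT libraries. PCAT14, a long noncoding RNA first found in prostate cancer (chromosome 22, 23536881 to 23547797), was at 2.15, 3.04 and 1.95 against 0.37, 0.82 and 0.28, 4.86-fold lower. ZDHHC8P1, a copy of a palmitoyltransferase gene (chromosome 22, 23390606 to 23402726), was at 1.53, 2.15 and 3.39 against 0.25, 0.84 and 0.14. ZDHHC8P1 was 5.75-fold lower, but its shCREPT replicate 2 came within 1.82 times of its lowest control library.

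BNIP3P5, a processed copy of a mitophagy receptor gene, was 10.3-fold lower, FERP1, a processed copy of a tyrosine kinase gene, 5.51-fold, and MIR205HG, the host transcript of a microRNA of epithelia, 4.93-fold. Reads of a copy and its parent can be shared, so the values of CSAG4, ZDHHC8P1, BNIP3P5 and FERP1 are uncertain. The same holds for ARHGEF5, SULT1A1 and PGM5, which have near-identical relatives. The relatives with a row were lower in shCREPT too, in a table of changed genes with 59.7% marked down. ARHGEF34P had means of 0.72 in shControl and 0.16 in shCREPT, ARHGEF35 of 0.217 and 0.0200, and PGM5P2 of 7.41 and 3.10, while BNIP3L had 103 and 62.9. ZDHHC8, BNIP3, FER, SULT1A2, CSAG1 and CSAG2 have no row and were not analysed here.

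Genes just inside and just outside each limit lay close in the value that the limit is set on, and could differ in their other values. At the limit on the shCREPT mean, PGM5 (0.493), SULT1A1 (0.490), PCAT14 (0.490), SLITRK6 (0.457) and DEPTOR (0.450) were just inside, and RANBP3L (0.507), EFHD1 (0.537), PNCK (0.550), PLEKHS1 (0.607) and GRTP1 (0.627) just outside. PLEKHS1, whose symbol names a pleckstrin homology domain, was at 12.33, 11.64 and 11.18 in shControl and 1.06, 0.35 and 0.41 in shCREPT, so the limit left out a gene that was 19.3-fold lower. At the limit on the shControl mean, GNG7 (1), NTN1 (1.08), BNIP3P5 (1.20), CCN4 (1.22) and GDPD3 (1.26) were inside, and NPPC (0.980), CDH12 (0.973), IGSF10 (0.940), CP (0.903) and CFAP206 (0.893) outside. At the limit on the ratio, SULT1A1 (4.12), GDPD3 (4.54), PRDM16 (4.57), CCN4 (4.77) and PCAT14 (4.86) were inside, and DCHS1 (3.96), TNFAIP6 (3.96), NAP1L1P3 (3.95), NOXA1 (3.93) and MORN3 (3.85) outside.

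The size of the fold in the authors' deposited table was close to that of the values for most members and not for all. The log2 fold change in the authors' deposited table had a median of −3.09 over the 54 members, from −7.91 in CSAG4 to −1.60 in PTPRH. It lay within 0.5 of the log2 ratio of the mean values in 39 of 53 members, was smaller in size by more than 0.5 in 6 and larger in size by more than 0.5 in 8. CLEC3A differed most in one direction, with −3.84 in the authors' deposited table, 1.43 further from 0 than the ratio of its means. APOC3 differed most in the other, with −4.14 in the authors' deposited table, 1.27 nearer to 0.

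**Figure D4:**
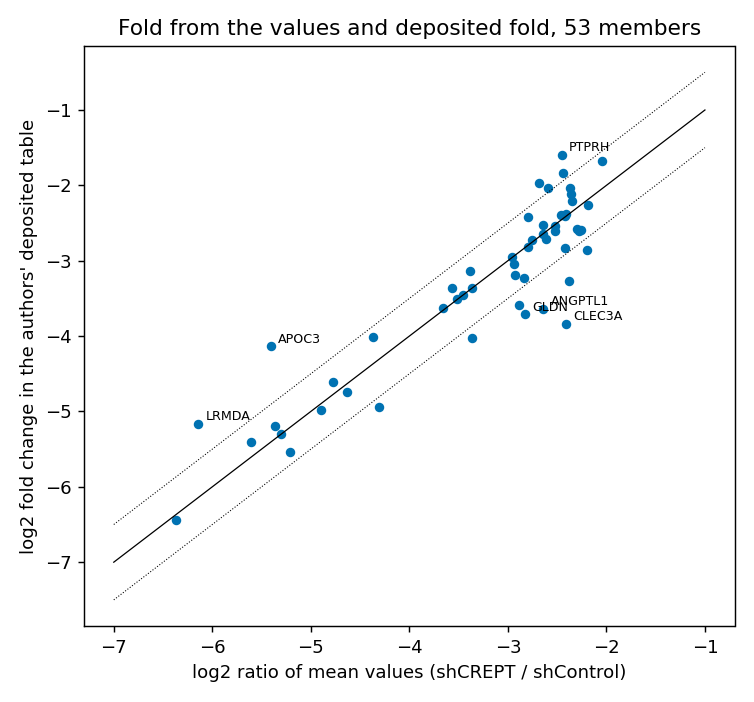
Log2 fold change of shCREPT over shControl in the authors' deposited table (vertical) against the log2 ratio of the mean normalized values (horizontal) for the 53 members with values above 0, 1 point a gene; the solid line is equality and the dotted lines lie 0.5 to each side. Of the 53 points 39 lie between the dotted lines, and CLEC3A and APOC3 lie more than 1 from equality.

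The members' control libraries were less even than those of like genes. The coefficient of variation over the 3 shControl libraries had a median of 21.4% in the members (3.96% to 100%) and of 15.5% in 388 other genes marked down with shControl means in the same range, 1 to 10.8. Those 388 genes had a higher median shControl mean, 3.54, and the part of the level in the difference was not tested. The highest control library was at least 2 times the lowest in 11 members (20.4%), against 54 of the 388 (13.9%), and it was under 1.5 times in 28 members. The 388 genes had a median shCREPT mean of 1.14 and a median fold of 2.69.

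The members were close to the other genes in exon length. The summed exons of a member had a median length of 4344 bases, against 4244 in the 388 genes and 4264 in the annotated genes of the table. GENCODE v29 placed 53 members on 20 chromosomes, 5 each on chromosomes 1, 5 and 16, and 48 of the 53 were protein-coding (table: 78.8% of 1549 annotated genes). The share of the table was taken without the name rule, which leaves out genes with no symbol, a LINC symbol or a hyphen. The shares are therefore not over like sets.

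Within 200 kb, 23 of the 53 placed members had another listed gene. Of the 29 such neighbours 4 were members themselves. Of the other 25, 17 were marked down (68%) and 8 up, where 59.7% of the whole table was marked down. The 17 include ARHGEF34P and ARHGEF35, which may share reads with ARHGEF5, and a pseudogene without a symbol that overlaps ZDHHC8P1. They also include LINC02997, which met the value limits and was left out by name. The part of these genes in the share was not tested. BBOX1 and FIBIN lie 44.6 kb apart on chromosome 11, and ZDHHC8P1 and PCAT14 134.2 kb apart on chromosome 22; these were the only 2 pairs in which both genes were members. Some neighbours went the other way at short distance: TCOF1, 1.3 kb from CD74, had means of 22.0 in shControl and 51.5 in shCREPT, and SCGB3A2, which overlaps C5orf46 on the other strand, had 7.10 and 27.6. COL14A1, 8.9 kb from DEPTOR, had 39.97 and 4.72, and TSPAN13, 7.3 kb from AGR2, had 49.0 and 15.3. No source used here says whether reads were counted by strand, so overlapping genes such as C5orf46 and SCGB3A2 may share reads. These neighbours were named after their values were seen.

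Family lists built from symbol patterns show how the members sit among the other listed genes of their kind. With limma on log2(value + 1) and Benjamini-Hochberg adjustment at 0.05, 678 of 1184 tested genes were lower (57.3%) and 481 higher (40.6%). The authors had selected every gene for this contrast, so 97.9% called is a property of the table. Rescaling by the median of ratios, which moves the shCREPT libraries up by 0.88 (log2) relative to the shControl libraries, turned that split to 377 lower and 492 higher, while quantile normalization gave 632 and 486. The factors of the median of ratios came from the listed genes alone, a table of changed genes with 59.7% marked down. The shift they give cannot be told apart from that tilt of the table. Only 42 of the 54 members passed the filter of a value of at least 1 in 3 libraries, and it kept members that were high in shControl. Members are therefore left out of the counts below, which cover the tested genes of each list that are not members, a choice made after seeing the data. Over the 840 such genes that pass the name rule, 463 were lower and 360 higher, which became 254 and 366 under the median of ratios and 442 and 363 under quantile normalization.

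In the list of extracellular matrix genes and their proteases, 25 of 29 tested non-members fell and 4 rose, and 19 fell and 4 rose under the median of ratios. This list holds 4 members, SCUBE3, CCN4, NTN1 and SPARCL1. Among cell adhesion and junction genes 15 of 23 fell and 8 rose (11 and 8 under the median of ratios); the list holds VCAM1, CDH15, ITGA11 and SLITRK6, and SELENOP only by the letters of its symbol. Among G protein-coupled receptors and their regulators, the list of TACR1 and GNG7, 18 of 25 fell and 7 rose (13 and 7). Ion channels, the list of TMC1, had 12 of 15 lower and 3 higher (7 and 3). Intracellular signalling regulators, the list of DOK5, DAPK1 and ARHGEF5, had 28 of 44 lower and 15 higher (19 and 15). In these 5 lists falls outnumbered rises among the called genes under both rescalings.

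In the other lists falls did not outnumber rises under the median of ratios. Secreted growth factors, cytokines and hormones had 23 of 42 tested non-members lower and 19 higher (13 and 19 under the median of ratios), and metabolic enzymes 29 of 48 and 16 (11 and 16). Transcription factors had 13 of 26 lower and 12 higher (6 and 12), and neuronal genes 9 of 16 and 7 (6 and 7). Quantile normalization kept more falls than rises in these 4 lists. Kinase, cytokine and death receptors had 14 of 30 lower and 15 higher (7 and 15), and immune and interferon-linked genes 16 of 36 and 19 (9 and 19). No member came from the cytoskeletal, contractile and keratin genes, of which 8 of 22 fell and 11 rose (7 and 13). C5orf46 was the 1 member among the symbols that name no function, of which 29 of 63 other tested genes fell and 34 rose (14 and 34). In all, 54 of the 1171 genes that pass the name rule are members (4.61%), and 22 members stood in none of the 13 lists.

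The rescaling by the median of ratios is too small to turn any member, given the least fold of 4.12. After it the groups did not overlap in 48 of 54. The share over all listed genes was not counted after rescaling, and the rule itself favours separated groups. CD74, ITGA11, MIR205HG, TMC1 and ZDHHC8P1 were among those that overlapped. Only 18 genes then met the limits of the rule. With each library left out in turn, 38 members met the rule every time, and the other 16 failed it at least once, among them BNIP3P5, CCN4, CLEC3A, DEPTOR, GDPD3, GNG7, ITGA11, LRMDA, MIR205HG, PCAT14, PGM5, PRDM16, SULT1A1, TMC1 and ZDHHC8P1.

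The folds themselves leaned on single libraries in 19 members, where leaving out 1 library moved the fold by over 1.5 times. In 17 of these the library was a shCREPT library, and in 4 (LRMDA, ITGA11, TMC1 and BNIP3P5) it was a shControl library. Without shCREPT replicate 3, S100B went from 29.8-fold to 89.4-fold, ITGA11 from 11.9-fold to 54.0-fold, ANGPTL1 from 6.24-fold to 14.5-fold and CD74 from 6.44-fold to 11.8-fold. TACR1 had no value above 0 without that same library.

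Without shCREPT replicate 2, IL1RAPL2 went from 20.7-fold to 50.6-fold, SPARCL1 from 24.8-fold to 37.7-fold, AZGP1 from 10.4-fold to 16.5-fold, ZDHHC8P1 from 5.75-fold to 12.1-fold and PCAT14 from 4.86-fold to 7.32-fold. APOC3 and C5orf46 had no value above 0 without it. BBOX1 was 13.2-fold lower without replicate 2 and 57.3-fold lower without replicate 3. Without shCREPT replicate 1, BNIP3P5 went from 10.3-fold to 30.1-fold, AGR2 from 7.41-fold to 15.0-fold and MIR205HG from 4.93-fold to 7.44-fold, and BNIP3P5 was 6.73-fold lower without shControl replicate 2. The folds of SCUBE3, LTF, SCRG1, PI15, PRSS35 and DOK5 moved by less than 1.5 times whichever library was left out.

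A mirror of the rule, with the groups exchanged, found 37 genes near off in shControl with the same name rule, and 57 with any name. Near-off genes were thus seen in both groups, with 54 and 78 on the shCREPT side. No test of that difference was made, since the authors' table holds more genes marked down (973) than up (657).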

How the data were processed

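Total RNA of 6 U87MG libraries was sequenced; the labels' protocols name a NEBNext Ultra library kit and do not say whether strand was kept. The submitters' processing notes name HISAT2, HTSeq and GRCh38, without versions. The authors deposited 1 table of genes they called changed, with a normalized signal per library (normalization not given in the sources used here; depth unknown, no counts) and, per the file headers, the fold change, its log2 value and p-values. The deposited fold as a ratio and the deposited p-value columns were not used beyond the authors' mark of direction.

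The members and lists were chosen with earlier results of these data known. Group means, SDs, folds and limits were computed with Python 3.11.15, numpy 2.4.6, pandas 2.3.3 and scipy 1.17.1, and figures with matplotlib 3.10.9. The whole table was fitted with limma 3.58.1 in R 4.3.3 on log2(value + 1) for genes at or above 1 in 3 libraries, without covariates, with Benjamini-Hochberg adjustment at 0.05; the step was tested on simulated data. Members got no test, and 3 against 3 libraries allow no exact two-sided permutation p under 0.1. Values in every library were given for the 24 members highest in shControl and further for some others named by role; those others, and all genes outside the members other than those at the limits, were chosen after their values were seen. At least 96.0% of the genes differed in value between any pair of libraries, and all 6 were kept as separate. GENCODE v29 (GRCh38) gave coordinates and gene types (1549 of 1630 identifiers matched, 53 of 54 members). The set of RefSeq promoters used here (GRCh38.p14) held 30 of 54 members by symbol. Alternatives were other limits, pseudocounts, filters, 2 rescalings, the replicate number as a block and each library left out. The values of 1 member are not reported here; it is included in the counts over all members.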

Additional observations from a re-analysis of the deposited data

How the results depend on the processing

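The number of near-off genes depends on the limits by construction. The 54 genes became 29 with a shCREPT limit of 0.25, 21 with a shControl minimum of 2, 20 with at least 8 times, 32 when every library had to meet the limits (29 of them among the 54), and 18 after median-of-ratios rescaling; a shCREPT limit of 1 gave 75, and leaving out 1 library gave 55 to 63. The median log2 ratio of the members, with 0.1 added to each mean, was −2.39; it was −1.65 after that rescaling, −1.17 with 1 added, −2.75 with 0.01 added, and −2.48 to −2.37 with 1 library left out. The limma count of 1159 genes became 485 with a minimum of 10 in 3 libraries, which tests fewer genes, and 1137 to 1152 with 1 library left out. The rule fixes the sign of the members' differences in the means of all libraries. The groups did not overlap in any of the 54 members. No pseudocount and no library left out could therefore change the sign of a difference of log2(value + 1). The rescaling was too small to do so, and the replicate block leaves such a difference unchanged. The kept sign was fixed in advance and lends the members no support. The difference moved by more than the replicate SD of log2(value + 1) in 54 with a pseudocount of 0.1 or 5 and in 47 after rescaling. Another pseudocount changes the scale of the difference while the SD was kept. The count of 54 is therefore no measure of change against replicate spread. Deviations from the group means correlated at −0.109, 0.018 and −0.179 between libraries of the same number, so the numbers give no pairing; with the replicate block limma called 1156 genes. Count tests were not run, for want of counts. The depth behind the values is unknown.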
